A study of Rattus norvegicus with 4 samples.

Results

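Pancreas from iron-overloaded (FeO) rats was set against pancreas from iron-deficient (FeD) rats through their common partner, the iron-adequate (FeA) pool. Weanling male Sprague-Dawley rats ate purified AIN-93G-type diets for 3 weeks. The FeD diet had no iron added (5 ppm by the labels), the FeA diet held 35 ppm, and the FeO diet carried carbonyl iron (20275 ppm), with cellulose supplied as Avicel and extra sucrose in all diets. Animals were fasted overnight before they were killed, and total pancreatic RNA from 6 rats per diet was combined into 1 pool. FeD and FeO were each hybridised with FeA on 2 two-colour Agilent rat arrays with the dyes exchanged, so 4 arrays carry 3 pools and no array carries FeO beside FeD. The difference FeO over FeD was therefore taken as the log2 ratio FeO/FeA minus the log2 ratio FeD/FeA, between arrays of the same dye order, which cancels both the FeA pool and the dye preference of each probe. This gave 2 pair values per probe, 1 with the diet RNA in Cy5 and 1 with it in Cy3, and their mean is the difference reported. A probe was kept when it was well above background in FeO or in FeD on both arrays of that diet and both pair values had the same sign. Of 30367 gene probes, 18387 passed the background criterion, 18332 of them had a value in both pairs, and 12230 of those (66.7%) had the same sign in both. They stood for 11321 of the 26485 genes on the array (5808 higher and 5513 lower in FeO). A further 5127 genes were measured but had pair values of opposite sign, and 10037 either did not pass the background criterion or lacked a value in at least 1 pair. Of 30 zymogen genes on the array 22 were measured, as were the islet hormones Ins1, Ins2, Gcg, Sst and Ppy, so markers of acinar and islet cells were present. All 4 arrays lay on 1 slide and 1 scan. Because each diet was 1 pool, the spread between pairs is technical and says nothing of rat-to-rat variation. Sizes are therefore given, and the tests over arrays near the end compare pools by technical error and do not test the diets.

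Cells that run short of iron keep the transferrin receptor (Tfrc) transcript stable through iron regulatory proteins, and cells with plenty store iron in ferritin (Fth1, Ftl1) and export it through ferroportin (Slc40a1). The exocrine pancreas is made up mostly of acinar cells, which fill zymogen granules with digestive enzymes and, when injured, secrete the regenerating (Reg) family of C-type lectins, also called pancreatitis-associated proteins. Between the acini lie islets, ducts, fat, vessels and connective tissue, and lymph nodes sit against the gland in the rat. In RNA of whole tissue, fewer cells of a type and less RNA per cell cannot be told apart.

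The leading differences fell into groups of genes with opposite directions. Regenerating proteins, the secreted phospholipase Pla2g2a, adipocyte genes, mast cell proteases and complement factors were higher in FeO, whereas lymphocyte and lymph node genes, MHC class II genes, Alox15 and the metallothioneins were lower. At a difference of 2 or more on the log2 scale, 11 genes were higher in FeO (0.0669% of the 16448 genes measured) and 8 were lower (0.0486%). At 1 or more, 79 were higher (0.48%) and 91 lower (0.553%). The median difference over all measured genes was 0.003 (log2), and the SD between the 2 pair values of a probe had a median of 0.10. The count at 2 depended on the processing. It was 64 higher and 71 lower from the scanner software's processed signals, 11 higher and 5 lower with median centring in place of loess, and 35 higher and 10 lower when the FeO and FeD channels were set against each other without FeA. In the plot of both dye orders the genes past 1 lay away from the cloud around 0, near the diagonal. Their like signs and their distance from 0 follow from the rule that chose them, and both pairs measured the same pools.

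**Figure D1:**
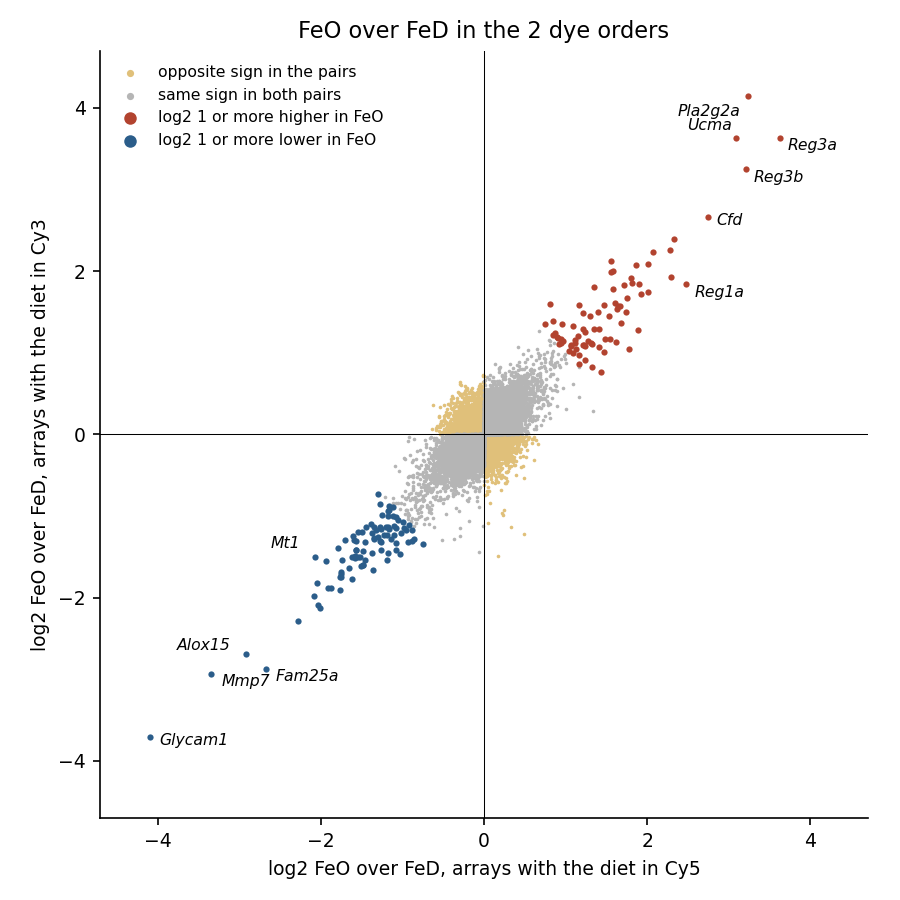
Each point is 1 measured gene, with its log2 FeO over FeD from the arrays with the diet in Cy5 (horizontal) and in Cy3 (vertical). The 79 genes at 1 or more (red) and the 91 at -1 or less (blue) were chosen by the mean and the shared sign of these values. The 5127 genes with opposite signs (yellow) were above 0 in 1 dye order and below 0 in the other.

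The highest mean difference belonged to Pla2g2a (without FeA, Reg3a was higher, with 3.83 against 3.69), a secreted phospholipase A2 that is induced in inflammation and attacks bacterial membranes. Its log2 ratio to FeA, given throughout with the array with the diet in Cy5 first and the Cy3 array second, was -0.59 and -0.53 in FeD and 2.65 and 3.62 in FeO. FeO exceeded FeD by 3.69 (pairs 3.24 and 4.15), or 12.9-fold. Both FeD arrays lay below FeA and both FeO arrays far above it, and of the 17 measured genes of phospholipase and eicosanoid metabolism no other was higher by 1 or more. Ucma, a secreted protein first known from growth plate cartilage, stood at -0.33 and -0.66 in FeD and at 2.76 and 2.97 in FeO, a difference of 3.36 (pairs 3.08 and 3.63).

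The regenerating family came next. Reg3a was above FeA in both diets, at 0.93 and 1.05 in FeD and at 4.55 and 4.68 in FeO, so that FeO exceeded FeD by 3.63 (pairs 3.62 and 3.63), or 12.4-fold. Reg3b followed the same order, with 0.74 and 1.04 in FeD against 3.95 and 4.29 in FeO and a difference of 3.23 (pairs 3.21 and 3.25), or 9.37-fold. Reg1a, the lithostathine of pancreatic juice, was already high in FeD (1.88 and 2.21) and reached 4.35 and 4.05 in FeO, which left a smaller difference of 2.16 (pairs 2.48 and 1.84), or 4.46-fold. FeD and FeO values did not overlap for any of the 3, which follows from the size of their differences. The share of all measured genes without overlap was not counted. For Reg3g and Reg4, the remaining family members on the array, neither diet gave a signal that passed the background criterion. The genes for Reg3b, Reg3a and Reg1a lie on the same strand of 1 chromosome. Since all 3 were higher in FeO, the 250 bases before the start of Reg3b (GRCr8 chr4:112419526-112419775, plus strand) and Reg1a (GRCr8 chr4:112450216-112450465, plus strand) are shown as RefSeq gives them, with matches to TTCNNNGAA, the palindrome that STAT factors bind, in capitals:
Reg3b: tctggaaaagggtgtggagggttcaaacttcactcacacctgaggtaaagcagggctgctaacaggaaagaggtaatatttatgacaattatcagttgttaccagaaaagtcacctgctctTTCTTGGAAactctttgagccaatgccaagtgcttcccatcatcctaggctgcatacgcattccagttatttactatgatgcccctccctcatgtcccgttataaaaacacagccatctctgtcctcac
Reg1a: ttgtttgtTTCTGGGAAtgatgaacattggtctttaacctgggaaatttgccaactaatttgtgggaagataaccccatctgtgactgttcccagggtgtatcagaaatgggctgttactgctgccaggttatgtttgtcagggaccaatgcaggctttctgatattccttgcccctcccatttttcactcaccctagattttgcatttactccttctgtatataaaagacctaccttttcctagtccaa
Each window held 1 match, and the window of Reg3a (the upstream of its 2 listed starts) held 0. Of 27457 RefSeq rat promoters, 7.52% hold the palindrome within the same 250 bases.

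Adipocyte genes formed the broadest group among the higher genes. Of 27 on the array, 24 were measured, all 22 with concordant pairs were higher in FeO, and 13 were higher by 1 or more, against 0.48% of all measured genes. Their median difference was 1.12 (pairs 1.05 and 1.22), or 0.71 without the FeO array with the diet in Cy3, and their range was -0.02 to 2.70. Adipokines led the group. Cfd, the serine protease adipsin, stood at -0.54 and -0.25 in FeD and at 2.20 and 2.41 in FeO, a difference of 2.70 (6.51-fold). Retn, which encodes resistin, was at -0.24 and -0.64 in FeD and at 2.04 and 1.62 in FeO, a difference of 2.27 (4.82-fold). Adipoq, which encodes adiponectin, was at 0.17 and 0.26 in FeD and at 1.97 and 2.17 in FeO, a difference of 1.86 (3.62-fold). On both FeD arrays Cfd and Retn lay below FeA and Adipoq above it, and all 3 were far above FeA on both FeO arrays. Car3, a carbonic anhydrase abundant in fat, differed by 2.36 (pairs 2.33 and 2.39).

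Among enzymes and regulators of fat storage, Cidec, which fuses lipid droplets, differed by 1.84 and the fat beta-adrenergic receptor Adrb3 by 1.83. Glycerol-3-phosphate dehydrogenase Gpd1 differed by 1.77, the adipogenic receptor Pparg by 1.62, the triglyceride lipase Pnpla2 by 1.60 and the fatty acid carrier Fabp4 by 1.49. Other fat genes differed far less. Plin1 differed by 0.24, Lipe by 0.21, Lpl by 0.29 and Lep, the leptin gene, by 0.32, while Ucp1, the uncoupling protein of brown fat, was not well above background. The summed normalised intensity of the 24 measured genes was 18693 to 19578 in FeD, 18811 to 21347 in FeA and 56640 to 56676 in FeO, so the FeO pool stood apart from both others. Agt, the angiotensinogen gene (1.82), Retsat, a retinol saturase (1.79), Aoc3, an amine oxidase of fat and vessels (1.32), and Acsl1, a fatty acyl-CoA ligase (1.04), were in no list and were named after their values were seen.

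Some metabolic enzymes were higher in FeO and others were not. Pck1, which makes phosphoenolpyruvate for glucose and glycerol synthesis, was at -0.37 and -0.08 in FeD and at 1.19 and 1.91 in FeO, a difference of 1.77 (pairs 1.56 and 1.99). The liver-type glycogen synthase Gys2 differed by 1.38 and pyruvate carboxylase, Pc, by 1.03. These 3 were the genes past 1 among the 14 measured of the gluconeogenesis and glycogen list, against 0.48% of all measured genes. The list median was 0.28, and the glucose-6-phosphatase gene G6pc1 differed the other way (-0.58). Fmo1, a flavin monooxygenase, differed by 2.15 (4.44-fold) and the molybdenum enzyme Aox1, an aldehyde oxidase, by 2.05 (4.13-fold), while Mtarc1, another molybdenum enzyme, differed by 1.87. The microsomal glutathione transferase Mgst1 (1.71) and the secreted glutathione peroxidase Gpx3 (1.18) were higher in FeO, and Gpx2, the peroxidase of the gut lining, was lower (-1.29 on its brighter probe, -0.44 on the other). The other 31 measured genes of the glutathione, peroxiredoxin and NRF2 list lay within 1 of 0, and the list median was 0.08.

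**Figure D2:**
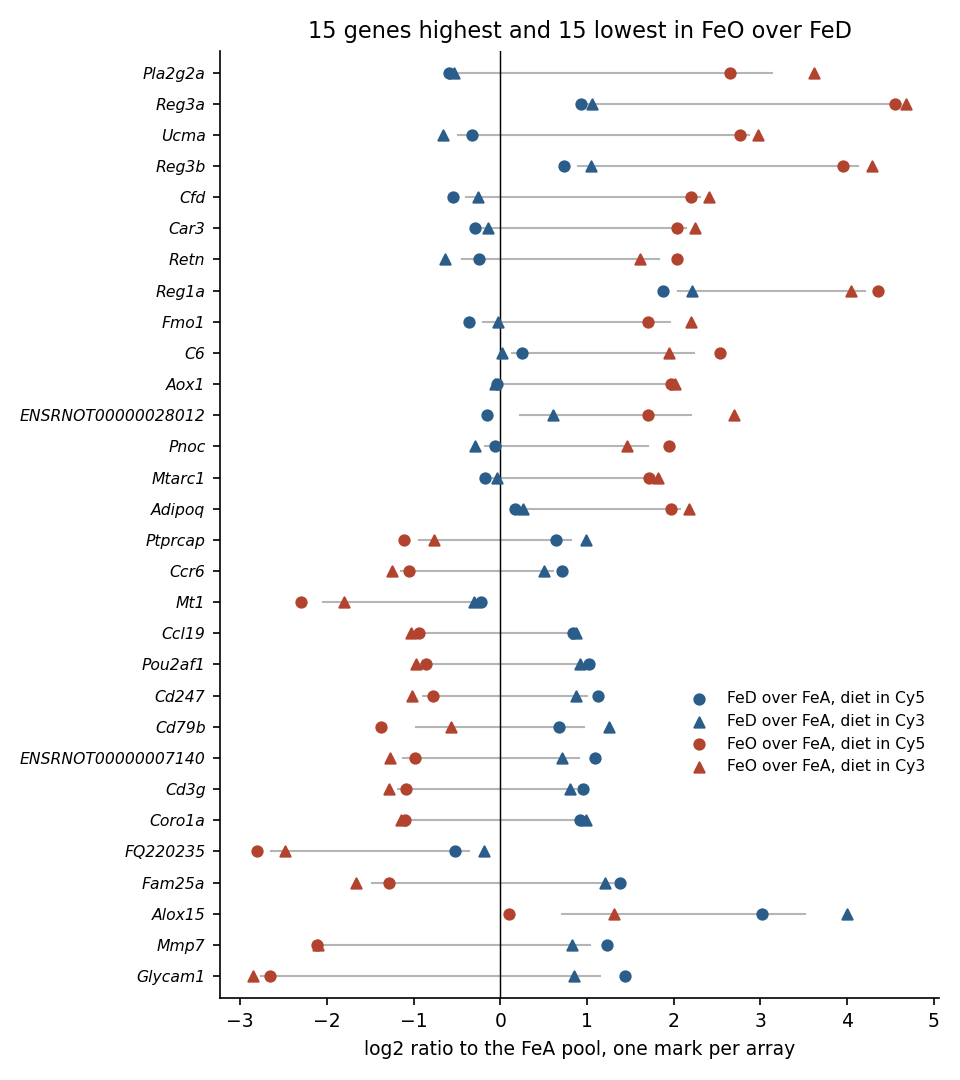
Each row is 1 of the 15 genes highest or the 15 lowest in FeO over FeD, and each mark is the log2 ratio to FeA on 1 array (blue FeD, red FeO; circles diet in Cy5, triangles diet in Cy3), with grey lines joining the diet means. Among the 15 highest genes, FeD marks lay closer to FeA than FeO marks did, with those of the Reg genes above FeA, whereas for most of the 15 lowest FeD lay above FeA and FeO below it.

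Complement genes were higher in part. Of 22 measured, 16 of the 19 with concordant pairs were higher in FeO and 5 by 1 or more (against 0.48% of all measured genes), with a median of 0.32. C6, a component of the membrane attack complex, stood at 0.25 and 0.01 in FeD and at 2.53 and 1.94 in FeO, a difference of 2.11 (4.31-fold). Cfd belongs to this list as well as to the adipocyte list, and factor B (Cfb, 1.25), C4a (1.22) and C2 (1.06), which enter the convertases, were the other 3. The summed intensity of the list was 31314 to 31783 in FeD, 24794 to 27390 in FeA and 60327 to 65423 in FeO. Bright genes weigh most in such a sum, Cfd and C4a (mean log2 intensity 12.6 each) among them, and the list median was only 0.32.

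Mast cell proteases were higher in FeO, with 3 of the 9 measured genes past 1 against 0.48% of all measured genes. The chymase Cma1 was at -0.05 and 0.23 in FeD and at 1.60 and 1.79 in FeO, a difference of 1.61 (3.05-fold). Mcpt1l4 differed by 1.58 (0.25 on a dimmer probe) and the tryptase Tpsb2 by 1.21, while the stem cell factor receptor Kit differed by 0.11. Tpsb2 was well above background on 1 of the 2 FeD arrays, so it passed the background criterion through FeO alone, where it was high. The median over the 9 was 0.88, and the summed intensity was 1304 to 1325 in FeD and 2558 to 2918 in FeO. The other 7 genes of this list on the array, among them the IgE receptor chains Fcer1a and Ms4a2, did not pass the background criterion, and the median over all 16 was 0.15.

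Connective tissue genes were higher in FeO by small sizes. All 23 measured genes of the collagen, matrix and fibroblast list were higher in FeO in both pairs. Their median was 0.50, and it was 0.21 without the FeO array with the diet in Cy3 and 0.78 without the other FeO array. Fibronectin, Fn1, was the 1 gene past 1 (1.16, with 0.07 on a dimmer probe), followed by Timp1 (0.94), Fbn1 (0.82) and Col1a1 (0.78). The summed intensity of the list was 33226 to 38740 in FeD and 47823 to 60130 in FeO. The 11 smooth muscle genes with concordant pairs were all higher in FeO than in FeD too, from 0.06 for Synm to 0.90 for Actg2. The summed intensity of that list was lowest in FeD (7514 to 8558), with 10361 to 12206 in FeO and 12024 to 14209 in FeA. Of all 11321 genes with concordant pairs, 5808 were higher in FeO. The 6 mesothelial genes with concordant pairs were higher as well, and Upk1b (1.24) and Wt1 (1.08) passed 1, against 0.48% of all measured genes. For Wt1, FeD was well above background on 1 of its 2 arrays. A second bright probe of Upk1b differed by 0.13 and a second Wt1 probe by 0.06, so those values depend on the probe. The part that fat, serosal and connective tissue in the dissected samples had in the differences of single genes was not tested.

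Lymphocyte and lymph node genes were the largest group among the lower genes. All 26 on the array were measured, 24 of the 25 with concordant pairs were lower in FeO, 9 by 1 or more (against 0.553% of all measured genes), and the median was -0.80 (pairs -0.64 and -0.86). The median was -1.93 from the processed signals and -1.37 with no normexp offset. Glycam1, the mucin that high endothelial venules of lymph nodes present to L-selectin, gave the lowest difference of all genes kept. It was at 1.44 and 0.85 in FeD and at -2.65 and -2.85 in FeO, a difference of -3.90 (pairs -4.09 and -3.71), or 14.9-fold higher in FeD. The chemokines that draw lymphocytes into nodes showed the same order, Ccl19 with 0.83 and 0.88 in FeD against -0.93 and -1.02 in FeO (difference -1.84) and Ccl21 with a difference of -1.72. FeD lay above FeA and FeO below it on every array for these 3 genes.

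T cell, B cell and general leukocyte genes were lower in FeO as well. Cd3g, a chain of the T cell receptor complex, differed by -2.06 (0.95 and 0.80 in FeD, -1.08 and -1.29 in FeO), and Cd247, which encodes its zeta chain, by -1.90. Cd79b, a chain of the B cell receptor, differed by -1.93. Among general leukocyte genes, the actin regulator Coro1a differed by -2.07 and Ptprc, which encodes CD45, by -1.56, although a dimmer Ptprc probe gave -0.60. Pou2af1, a B cell coactivator, differed by -1.88 on its brightest probe and by -0.36 and -0.22 on dimmer ones. Cd247 and Pou2af1 were in no list but among the 15 lowest genes. The T cell kinase Zap70 (-1.53), the surface receptor Cd6 (-1.54) and the T cell factors Tcf7 (-1.04) and Lef1 (-1.07) were in no list and were named after their values were seen. Smaller differences were found for Cd4, whose pairs had opposite signs around -0.03, Il7r (-0.16) and Lck (-0.40), and Cxcl13, the B cell follicle chemokine, differed the other way (0.36). The summed intensity of the list was 20723 to 21272 in FeD, 11751 to 12287 in FeA and 6831 to 7103 in FeO, so the FeA pool lay between the others. How much lymph node each pool contained was not tested.

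MHC presentation genes were lower alongside. None of the 15 genes with concordant pairs was higher in FeO, 4 were lower by 1 or more (against 0.553% of all measured genes), and the median over the 20 measured was -0.39. The 4 were class II genes, namely the invariant chain Cd74 (-1.51), RT1-Da (-1.28), RT1-Db1 (-1.21) and RT1-Bb (-1.01, with -0.60 on a dimmer probe), whereas the class I light chain B2m differed by -0.38. Interferon-stimulated genes had a median of -0.23, and Mx1, an antiviral GTPase, was the 1 gene past 1. It was at 1.37 and 1.1 in FeD and at -0.12 and -0.51 in FeO, a difference of -1.54. Macrophage genes had no common direction, with 10 of the 16 measured higher and 6 lower, from -0.84 for Marco and -0.81 for Lyz2 to 0.73 for Cd163, the haemoglobin-haptoglobin receptor.

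**Figure D3:**
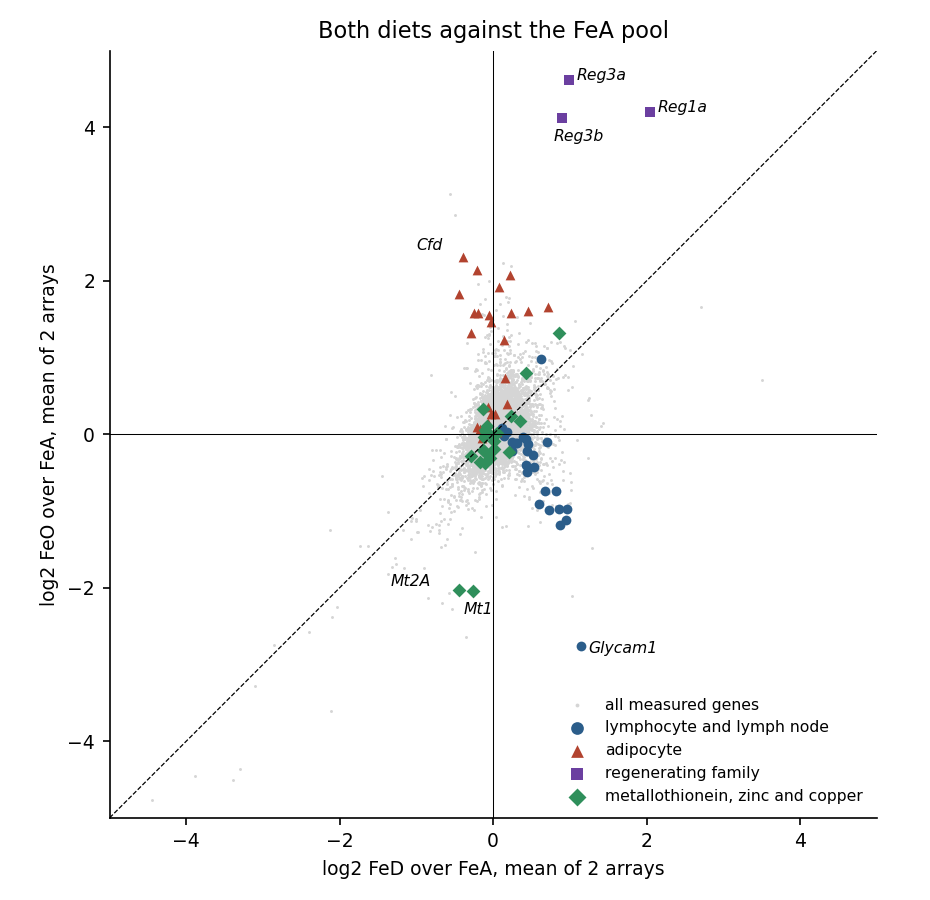
Each point is 1 measured gene, with the mean log2 ratio to FeA in FeD (horizontal) and in FeO (vertical), and the dashed line marks equal values. Most lymphocyte and lymph node genes (blue) lay right of and below 0 (Cd4, Cd8b and Cxcl13 were above FeA in both diets), adipocyte genes (red) lay above FeA mainly in FeO, Reg genes (purple) were above FeA in both diets, and Mt1 and Mt2A (green) lay below FeA mainly in FeO.

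The position of FeA differed between the higher and the lower genes. Of the 79 higher genes, 64 were 1 or more from FeA in FeO alone, 0 in FeD alone and 1 in both, and their median log2 ratio to FeA was -0.05 in FeD and 1.32 in FeO. For 29 of the 79, FeD lay below FeA and FeO above it on all 4 arrays, by any amount. Of the 91 lower genes, 16 were 1 or more from FeA in FeO alone, 9 in FeD alone, 7 in both and 59 in neither, and the median ratio was 0.66 in FeD and -0.72 in FeO. For 72 of the 91, FeD lay above FeA and FeO below it on all 4 arrays. Choosing genes by a large difference between the diets itself favours opposite sides of FeA. The share over all measured genes was not counted. FeD was well above background on both arrays for 68 of the 79 higher genes and on neither for 3, and FeO on both for 88 of the 91 lower genes and on neither for 1. The 3 include Pnoc, the nociceptin precursor, which was at least 3.4-fold higher in FeO, and Barx1, a homeobox gene, which was at least 1.86-fold higher. The 1 was Mmp7, the metalloproteinase matrilysin, which was at least 7.27-fold higher in FeD. For these bounds the mean of the bright diet was divided by a limit for the other diet, which on each array was the lowest signal that still counted as well above background, or the probe's own signal where that was higher.

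Alox15, the arachidonate 15-lipoxygenase, was the eicosanoid gene with the largest difference in the other direction from Pla2g2a. It was at 3.02 and 4.00 in FeD and at 0.11 and 1.31 in FeO, a difference of -2.80 (pairs -2.91 and -2.69). FeD was far above FeA. In FeO 1 array (0.11) was within the median SD between FeO arrays (0.17) of FeA, so its sign does not show that FeO differed from FeA. Tdh, a threonine dehydrogenase, was above FeA in both diets, with 2.55 and 2.88 in FeD, 1.43 and 1.88 in FeO and a difference of -1.06. Fam25a was lower in FeO on both of its probes (-2.77 and -2.48).

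Metallothioneins bind zinc and copper and are induced by metals through the metal response element. Mt1 was near FeA in FeD (-0.22 and -0.30) and low in FeO (-2.29 and -1.80), a difference of -1.78 (pairs -2.07 and -1.50), or 3.45-fold higher in FeD. Mt2A was at -0.55 and -0.33 in FeD and at -2.34 and -1.73 in FeO, a difference of -1.59 on its brighter probe and -1.27 on the other. No other measured gene of the metallothionein, zinc and copper list passed 0.5 in either direction, from -0.44 for the acinar zinc transporter Slc39a5 to 0.47 for Slc30a4. The 250 bases before each start, on the minus strand of GRCr8 at chr19:10832976-10833225 for Mt1 and chr19:10838709-10838958 for Mt2A, are shown from RefSeq because both genes were lower in FeO. Matches on either strand to TGCACNC or TGCGCNC, the core of the metal response element, are in capitals:
Mt1: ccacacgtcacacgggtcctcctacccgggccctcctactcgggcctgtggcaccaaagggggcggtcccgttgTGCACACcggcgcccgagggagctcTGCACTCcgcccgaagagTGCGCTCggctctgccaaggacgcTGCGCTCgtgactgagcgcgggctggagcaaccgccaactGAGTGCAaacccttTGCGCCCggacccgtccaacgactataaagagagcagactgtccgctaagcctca
Mt2A: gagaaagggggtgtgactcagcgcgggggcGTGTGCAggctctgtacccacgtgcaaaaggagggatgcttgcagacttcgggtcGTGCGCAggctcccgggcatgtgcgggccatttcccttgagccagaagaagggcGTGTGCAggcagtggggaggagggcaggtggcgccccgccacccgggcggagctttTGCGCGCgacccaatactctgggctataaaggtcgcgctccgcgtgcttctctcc
No matches overlapped. Mt1 held 6 and Mt2A 4, while 21.2% of 27457 promoters hold at least 1 match in this window and 1.25% hold 3 or more.

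Genes of iron handling differed little. Of 25 measured, 12 of the 20 with concordant pairs were higher in FeO and 8 lower, and the median was 0.07. None differed by 1 or more. Over all measured genes only 0.48% were higher and 0.553% lower by that much, so this does not set the list apart. Tfrc had the largest size. It was at 0.31 and 0.45 in FeD and at -0.52 and -0.63 in FeO, a difference of -0.96 (pairs -0.83 and -1.08), or 1.94-fold higher in FeD. Its second probe was not well above background. Cybrd1, the duodenal ferric reductase, lay at the other end, with -0.45 and -0.80 in FeD and 0.43 and -0.21 in FeO, a difference of 0.73 (pairs 0.88 and 0.59), and FeD was well above background on 1 of its 2 arrays. FeD and FeO arrays did not overlap for either gene. With 2 arrays per diet this alone sets neither gene apart, as the share of all measured genes without overlap was not counted. The importer Slc11a2 differed by -0.38 on its brighter probe and by 0.03 on the other, and the zinc and iron importer Slc39a14 differed by 0.17 on its brightest probe and by -0.13 on the other. Ferroportin, Slc40a1, had pairs of opposite sign (-0.17 and 0.10). The ferritin chains Fth1 (-0.10) and Ftl1 (0.15), the ferroxidase Heph (0.13), the sensor Hfe (0.13) and hepcidin, Hamp (-0.15), lay close to 0, and Tfr2 was not well above background. The lipocalin Lcn2 (0.49), Id1, a target of BMP signalling (0.37), transferrin, Tf (0.35), and Aco1, which becomes iron regulatory protein 1 when it loses its iron-sulfur cluster (0.28), were the next highest after Cybrd1.

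**Figure D4:**
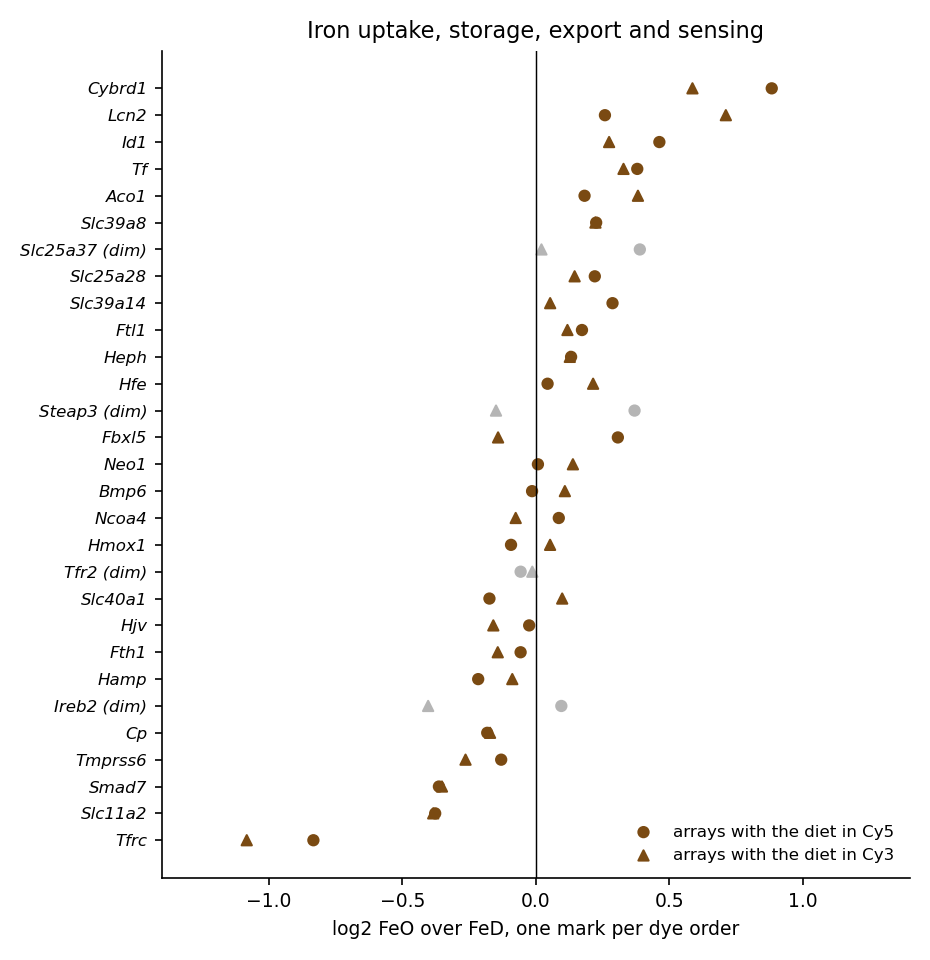
Each mark is the log2 FeO over FeD of 1 iron gene in 1 dye order (circles diet in Cy5, triangles diet in Cy3), with grey for genes not well above background. Tfrc lay at -0.83 and -1.08 and Cybrd1 at 0.88 and 0.59, and the marks of all other measured genes lay between -1.08 and 0.88.

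Red cell genes were mixed. The membrane exchanger Slc4a1 was at 0.80 and 1.38 in FeD and at -0.30 and 0.15 in FeO, a difference of -1.17, and the erythroid heme synthesis enzyme Alas2 differed by -0.79. Globin probes disagreed. Hba-a3, an alpha-globin gene in no list, differed by 1.58 (-1.13 and -0.48 in FeD, 0.76 and 0.79 in FeO), whereas Hba-a1 differed by -0.25, Hbb-bs by -0.70 and the brighter Hbb probe by 0.37. Hba-a1 and Hbb-bs were in no list and were named after their values were seen. Probe sequences were not used here, and whether probes of near-identical genes (globins, RT1, metallothioneins, mast cell proteases) share signal was not tested.

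Most acinar and endocrine genes differed by less than 1. Of the 22 zymogen genes measured, 11 were saturated on at least 1 array, where a signal is only a lower bound. Of the 20 with concordant pairs, 17 were lower in FeO, and the list median was -0.31. Prss3, a trypsinogen, was the 1 gene past 1, at -0.17 and -0.91 in FeD and at -1.92 and -2.62 in FeO, a difference of -1.73. Among genes with no saturated spot, the lipase-related protein Pnliprp1 (-0.71) and the amylase Amy2a3 (-0.60) followed. Duct genes had a median of -0.20, with osteopontin, Spp1, at -0.66 and keratin Krt19 at -0.65. Among islet hormones, pancreatic polypeptide, Ppy, was lower by -1.37 (-0.07 and 0.41 in FeD, -1.26 and -1.13 in FeO) and glucagon, Gcg, was higher by 0.93 (0.34 and 0.08 in FeD, 1.19 and 1.1 in FeO). The insulin genes Ins1 (-0.37) and Ins2 (-0.32) were slightly lower and somatostatin, Sst, had pairs of opposite sign around -0.02.

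Genes of the intestinal lining marked the FeA pool more than either diet. Of 35 on the array, 15 were measured, and their summed intensity was 16078 to 17126 in FeA but 5721 to 6822 in FeD and 5097 to 5992 in FeO. The gut genes Fabp1, Fabp2 and Apoa1 did not pass the background criterion, and S100g, a calcium carrier of the gut, was at -4.39 and -4.49 in FeD and at -4.83 and -4.71 in FeO, a difference of -0.33. Lgals4, a gut galectin, differed by -1.49 and was the 1 gene of the list past 1 (the list median was -0.13). Both diets had low summed intensity beside FeA, and the list median of FeO over FeD was small, for which the cause was not tested. The direct comparison of FeO and FeD channels without FeA gave -1.46 for Lgals4 and -0.28 for S100g.

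In 13 of the 34 lists no gene with concordant pairs was 1 or more from 0. With 0.48% of all measured genes higher and 0.553% lower by 1 or more, a list without such a gene is not unusual. Among them were the respiratory chain (31 measured, median 0.11, from -0.26 to 0.29), iron-sulfur assembly (median 0.07), hypoxia-inducible genes (30 measured, median 0.07, from -0.43 for Ndrg1 to 0.69 for P4ha1), endoplasmic reticulum folding (median 0.00) and cholesterol synthesis (median 0.02). In the cell cycle list Mcm3, a subunit of the replicative helicase, was the 1 gene past 1 (-1.46), with -0.89 on a dimmer probe, while its partner Mcm2 differed by 0.02 and the proliferation gene Top2a by -0.11. Of the 34 lists, 5 had a median of 0.5 or more in size, 4 of them positive.

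**Figure D5:**
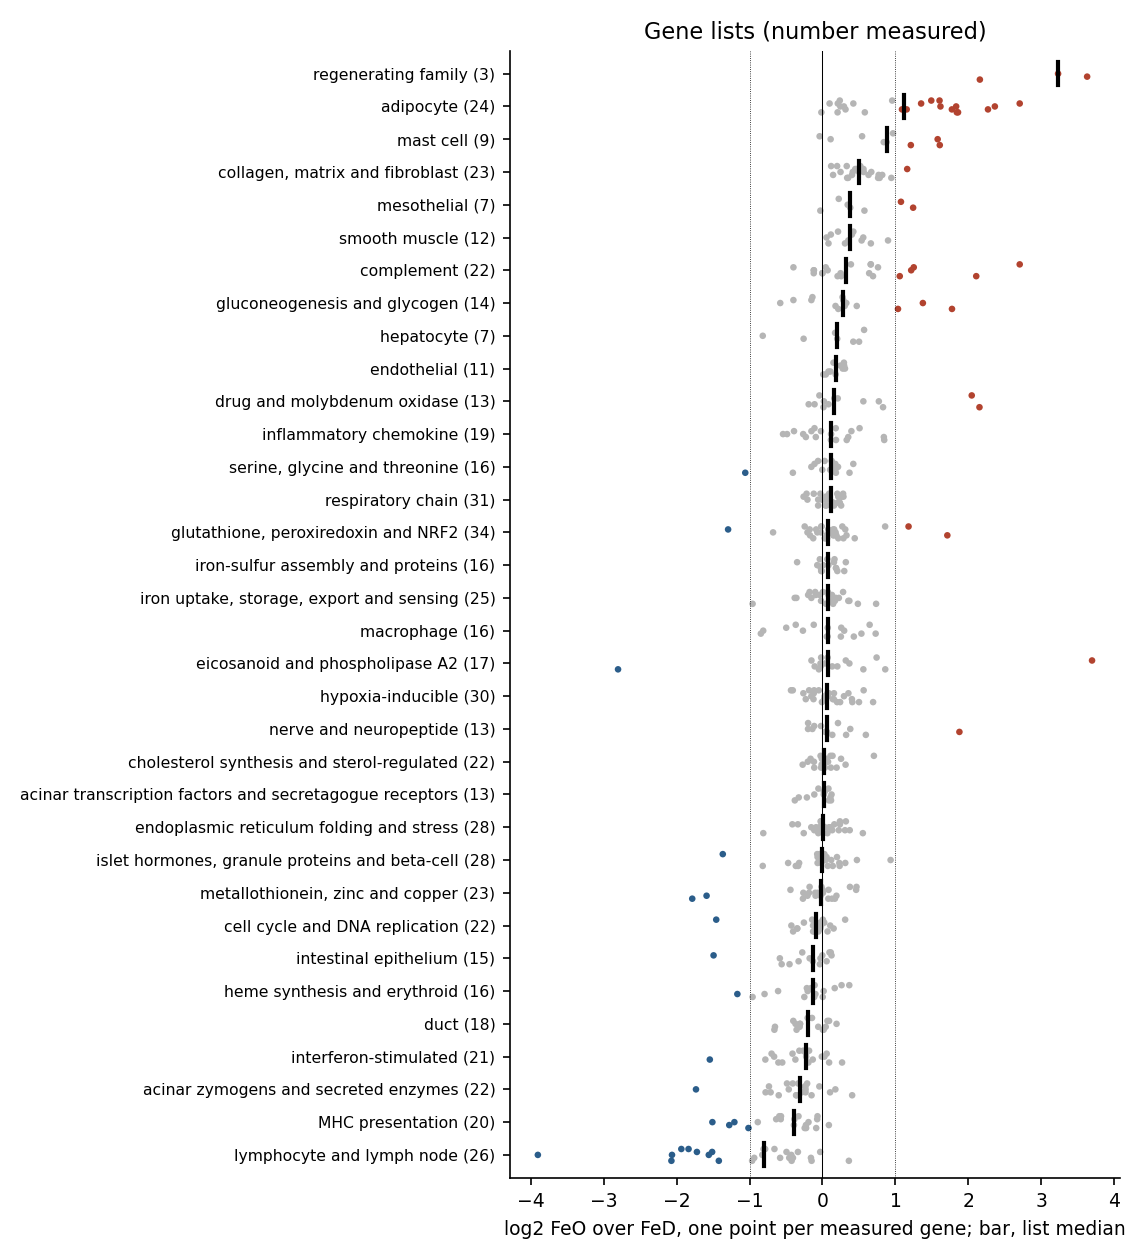
Each point is the log2 FeO over FeD of 1 measured gene of a list, with red for 1 or more and blue for -1 or less in concordant pairs and a black bar for the list median. The regenerating family, adipocyte, mast cell and matrix lists had medians of 0.50 to 3.23, the lymphocyte and lymph node list had -0.80, and the other 29 lay between them.

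Beyond the lists, 44 of the 79 higher and 67 of the 91 lower genes had no list, and those named here from this group were named after their values were seen except for the 15 leading genes per direction. The insulin-like growth factor binding proteins Igfbp2 (1.52 on its brighter probe, 2.27 on the other), Igfbp6 (1.44) and Igfbp4 (1.03) were higher in FeO, as were the extracellular matrix proteins Ccdc80 (1.25), Fmod (1.12) and Efemp1 (1.12). The lower genes without a list included Ltb, the lymphotoxin beta gene that shapes lymphoid organs (-1.34), the lymphocyte homing receptor Ccr6 (-1.76), the CD45 partner Ptprcap (-1.75), Cd83, a marker of dendritic cells and activated B cells (-1.41), and the aspartic proteases Ctse (-1.54) and Napsa (-1.25). Just inside the limit of 2 lay Aox1 and C6 among the higher genes and Cd3g and the transcript ENSRNOT00000007140 (-2.03) among the lower, and just outside lay the transcript ENSRNOT00000028012 (1.97), Pnoc (1.88), Cd79b and Cd247.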

How the data were processed

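Pancreas RNA pools of 3 diets were measured on 4 two-colour arrays. The authors deposited intensity values from Agilent Feature Extraction 10.1.1.1, per the submitters' notes and file headers, uncorrected median signals and processed signals among them. Their tables of fold changes, p-values and q-values were used for gene symbols only, so none of the fold or p-value columns entered. In R 4.3.3 with limma 3.58.1, median signals were corrected by normexp (offset 50) and loess was applied within arrays with control spots at no weight. Outlier spots (722 to 938 per array) were left out and spots of a probe averaged. Between 61.9% and 71.5% of gene spots per channel were well above background, and the number of arrays limits the precision. A gene's value is that of its brightest probe with concordant pairs. Named genes are the 15 highest and 15 lowest, the study's genes, list genes past 1, genes on opposite sides of FeA (10 per direction) and those beside the limit of 2. Other genes, list genes within 1 of 0 included, were named after their values were seen. Members and lists were chosen with earlier results of these data known. Same-numbered arrays share the dye order, and over 18332 probes their deviations from the diet means correlated at r = 0.81, so arrays were paired. The SD between arrays of a diet had a median of 0.16 in FeD and 0.17 in FeO. Names were taken from RefSeq (18004 probes), else from the authors' table (4945), else from the array file (7418). Steps were tested on simulated data. Some genes are not reported here. Alternatives are given at the end.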

Additional observations from a re-analysis of the deposited data

Results flagged for a closer look

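For the genes and lists below, every FeD array lay on 1 side of FeA and every FeO array on the other side, as their measured log2 ratios had opposite signs. The difference between the diets was not tested, since each is 1 pool, and a sign alone does not show that FeD differed from FeA. At least 1 FeD array was within the median SD between FeD arrays (0.16) of FeA for Car3, Fmo1, Aox1, Mtarc1, Adrb3, Pck1, Pparg, Tpsb2 and Igfbp2, and the FeD medians of the adipocyte list were as close. FeD lay below and FeO above FeA for Pla2g2a (difference 3.69), Ucma (3.36), Cfd (2.70), Car3 (2.36), Retn (2.27), Fmo1 (2.15), Aox1 (2.05), Mtarc1 (1.87), Adrb3 (1.83), Pck1 (1.77), Pparg (1.62), Pnpla2 (1.60), Hba-a3 (1.58), Igfbp2 (1.52), Upk1b (1.24), Tpsb2 (1.21), Prr15 (1.21) and Slc7a3 (1.1), and for the adipocyte list by its median (1.12). A second Upk1b probe, well above background, did not have FeD and FeO on opposite sides (difference 0.13). For Tpsb2 and Slc7a3, FeD was well above background on only 1 of its 2 arrays. Pnoc (measured difference 1.88) and Barx1 (1.20) had the same signs, but FeD and FeA were not well above background there, so their order has no meaning and the differences are bounds only.

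FeD lay above and FeO below FeA for Glycam1 (-3.90), Fam25a (-2.77), Coro1a (-2.07), Cd3g (-2.06), the transcript ENSRNOT00000007140 (-2.03), Cd79b (-1.93), Cd247 (-1.90), Pou2af1 (-1.88), Ccl19 (-1.84), Ccr6 (-1.76), Ptprcap (-1.75), Ccl21 (-1.72), Ptprc (-1.56), Mx1 (-1.54), Cd74 (-1.51), Mcm3 (-1.46), Cd27 (-1.42), RT1-Da (-1.28), RT1-Db1 (-1.21) and Tfrc (-0.96), and for the lymphocyte and lymph node list by its median (-0.80). A second RT1-Db1 probe had FeD below FeA on both arrays (-0.25 and -0.40), with a difference of -1.27. Mmp7 had the same signs (measured difference -3.14), but FeO was not well above background there, so that its difference is a bound only.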

How the results depend on the processing

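Each diet is 1 pool, so the values show how FeO and FeD RNA differed and not how rats differ, and they depend on 2 arrays per diet and on probes whose sequences were not used here. The count of genes at 2 or more moved from 11 higher and 8 lower to 30 and 21 with a normexp offset of 0, and to 64 and 71 with the scanner software's processed signals. It was 5 lower with median centring and 35 higher without FeA, and 79 and 91 at a limit of 1; the cause was not tested. Leaving out arrays gave 10 to 15 higher and 7 to 10 lower genes, 4 to 9 lists with a median of 0.5 or more in size (5 with all arrays, 9 without the FeO array with the diet in Cy5), and 30 of the 30 leading genes past 1 each time. Without the background filter 3 lists had such a median. All 30 leading genes were past 1 in the same direction in every setting in which they were measured, and 28 were measured under a filter that asked for both diets above background. These 30 were picked as the largest differences in the same arrays, so staying past 1 is no independent support. Tests over arrays compare pools by technical error. The t-test of the paper's methods, used there for each diet against FeA, was applied here to FeO against FeD. It gave p under 0.05 for 1166 of 18332 probes and, after Benjamini-Hochberg adjustment, 0. After the same adjustment limma gave 45 without a replicate block and 1125 with the dye order as a replicate block. Of the genes at 2 or more, the t-test left 0 higher and 0 lower after adjustment, limma 10 and 7 without the replicate block, and 11 and 8 with the replicate block. Those genes were likewise chosen by size from the same arrays. No named gene past 1 and no list median past 0.5 changed sign under any alternative run. Of 1141 values of 82 named genes, 417 moved by more than the spread between pairs, as did 209 of 476 values of 34 lists.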
